A study of Saccharomyces cerevisiae with 8 samples.

Results

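The transcript response of wild-type budding yeast, Saccharomyces cerevisiae, to a short salt shock was read from 4 of the 8 arrays of the series, taken by sample title. Salt-treated wild type is 2 cultures harvested 20 minutes after NaCl had been brought to 0.4 M, and unstressed wild type is 2 cultures without added salt. All 6256 non-control probes of the array belong to the comparison, and 5394 genes could be tested. The labels name the strain BY4147 and its Htz1 as wild type, and all cultures of the series shared this strain name and rich YPD medium. Each array carried Cy3-labelled cRNA made from the total RNA of 1 culture, and the 2 cultures per group are described as biological replicates. The other 4 arrays hold a strain of the same name that lacks HTZ1, which encodes a histone variant, with and without the same salt. They enter the comparison of the strains and the bins of probe brightness. They also enter the spread used in every test and the choice of genes and probes tested, but not the wild-type changes themselves. The series title concerns the INO80 chromatin remodeller. HTZ1 was detected on every wild-type array, at log2 levels of 1.09 and 0.98 with salt, against 1.35 and 1.29 without salt.

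Yeast cells that meet high salt lose water, and the mitogen-activated kinase Hog1 then drives the making and keeping of glycerol, the internal osmolyte. In parallel the zinc finger activators Msn2 and Msn4 switch on a general stress programme of reserve carbohydrates, protective proteins and antioxidant enzymes. Genes for building ribosomes, which take a large part of the cell's transcription in rich medium, are turned down in many stresses at the same time.

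Levels are given throughout as log2 of the processed signal relative to the array's own 75th percentile, so a level of 0 is a probe at that percentile. The levels of named genes are not compared with one another, while probes are ranked by level for the bins of probe brightness. The scaling makes each value relative to the other transcripts on the array, so a change in total RNA per cell was not measured. The 75th percentile of the signal was 2923 and 4290 on the salt arrays, against 3914 and 3999 on the unstressed arrays, and 88.9% and 84.4% of spots were well above background with salt, against 82.2% and 84.2% without. Replicates correlated across genes at r = 0.987 with salt and 0.993 without, and salt arrays correlated with unstressed arrays at r = 0.846 to 0.867. The 2 numbers that end the name of each scan were read here as slide row and column. So read, slide position and treatment cannot be told apart: the salt arrays sat in columns 3 and 4 of the slide and the unstressed arrays in columns 1 and 2. Paralogs with near-identical sequence, such as ribosomal protein, ENA, histone and hexose transporter genes, may share probe signal.

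A dim area was found on the second salt array. Between grid rows 48 and 64 and columns 23 and 27, 38 of 54 spots whose twin spot of the same probe was well above background lay more than 2 log2 units below that twin, against 39 of 10481 spots elsewhere on that array. On the other 3 wild-type arrays 0 spots did so in the same area. In all, 37 tested genes have a spot there that read more than 2 log2 units below its twin, and only these are counted next. With that array's values kept, 11 of them fell and their median log2 change was −1.25. With no value on an array where the spots of a probe disagreed, an alternative chosen after seeing the data, 11 fell, 8 rose and the median was −0.22. The widest gaps between replicates in wild type belonged to 5 of these genes, which did not pass the test. BRF1, a subunit of the polymerase III initiation factor, was at −0.12 and −3.38 with salt, against −0.09 and −0.11 without. The ubiquinone synthesis gene COQ6 was at 1.16 and −2.40 with salt, against 0.03 and −0.07 without, and its log2 change of −0.60 turned to 1.17 without the second salt array. TAF10, GGA1 and UFD2 were at −2.09, 0.96 and −1.03 with the array and at −0.43, 2.64 and 0.64 without its disagreeing spots. For any other named gene affected by disagreeing spots, the value without them stands beside it.

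Salt changed a large share of the tested transcriptome. By limma with Benjamini-Hochberg adjustment over all 5394 genes, 1683 genes rose (31.2% of those tested) and 1387 fell (25.7%), which is 56.9% in all. The share was 39.9% under normexp background correction and 42.3% to 47.5% with any 1 of the 4 arrays left out. A change of at least 2-fold was reached by 691 rising genes (12.8%) and 612 falling genes (11.3%), together 24.2%. The tails were unequal. At 8-fold or more there were 104 rising against 30 falling genes, and at 16-fold or more 55 against 3. Among the 4949 genes that all 4 wild-type arrays detected, falling genes led at the lower marks. There 494 rose and 569 fell at least 2-fold, and 136 rose and 168 fell at least 4-fold. At 8-fold the counts were 61 and 24, and at 16-fold 33 and 3. The median gene stood at 0.07, 5% of genes lay below −1.67 and 5% above 1.83. The median SD between replicates was 0.11 with salt and 0.09 without. Both salt arrays lay above both unstressed arrays for 2417 genes (44.8%) and below both for 2027 (37.6%).

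**Figure D1:**
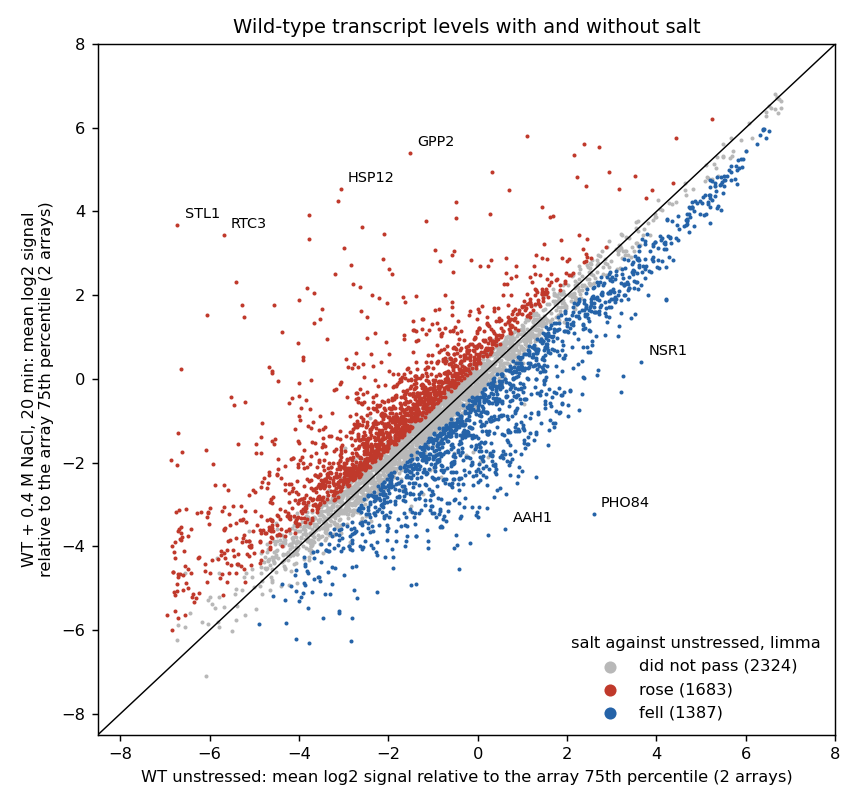
Mean log2 level of each of 5394 genes with salt (vertical axis) against without salt (horizontal axis) in wild type, 2 arrays each, relative to the array's 75th percentile. Red points rose (1683), blue points fell (1387) and grey points did not pass (2324). The rising genes farthest from the diagonal, up to STL1, lie beyond the farthest falling ones.

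The 15 highest changes among genes detected on all 4 arrays were all over 32-fold. NQM1, a transaldolase and paralog of TAL1, was at 4.04 and 3.77 with salt, against −3.73 and −3.82 without (log2 change 7.68, SE 0.19, limma adjusted p = 2.53e-07). HSP12, a small membrane-protecting heat shock protein, was at 4.71 and 4.36 with salt, against −3.16 and −2.97 without (7.60, SE 0.18). ALD3, a cytosolic aldehyde dehydrogenase, was at 4.35 and 4.16 with salt, against −3.23 and −3.01 without (7.37, SE 0.20). In each of the 3, which were picked for large changes, the salt and unstressed arrays lay far apart, while replicates differed by at most 0.35. The glycerol phosphatase gene GPP2 reached 5.51 and 5.27 with salt, against −1.52 and −1.53 without, and the cytosolic catalase gene CTT1 3.38 and 2.88 with salt, against −2.95 and −3.05. The trehalose synthase subunit TSL1 was at 1.79 and 1.97 with salt, against −4.03 and −3.98 without. MPC3, a subunit of the mitochondrial pyruvate carrier, had the widest salt replicates of the 15, at 2.14 and 1.21, against −3.51 and −3.46 without salt (5.16, SE 0.39). The glutamate decarboxylase GAD1 was at 1.45 and 1.24 with salt, against −3.85 and −3.48 without (5.01, SE 0.15). SPI1, a cell wall protein anchored by a lipid, rose 33.2-fold and TMA10, a ribosome-associated protein, 46.8-fold. MSC1 rose by 5.56 and the stress gene DDR2 by 5.97 on the log2 scale.

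A further 120 genes were well above background on both salt arrays and on neither unstressed array, a filter that favours a rise. Of the 120, 111 rose. Their folds are lower bounds, from the salt mean against the higher, on each unstressed array, of 2 values: what the probe itself read and the signal of the dimmest detected probe. The bound was at least 10-fold for 14 genes and had a median of 2.24. STL1, which imports glycerol with protons, was at 3.83 and 3.52 with salt, and at −6.49 and −6.95 on the unstressed arrays, where it was not well above background, a rise of at least 307-fold. RTC3 rose at least 260-fold and the hexose transporter HXT5 at least 81.3-fold. The spots of HXT5 disagreed on the first unstressed array, and its log2 change was 7.03, or 6.98 without it. HBT1 rose at least 17.9-fold and RTN2, a reticulon that shapes the endoplasmic reticulum, at least 16.5-fold. PUT4, the proline permease, was at 1.80 and 1.75 with salt, against −4.98 and −4.12, and rose at least 64.4-fold. PHM7 rose at least 66.6-fold and GID11, a substrate receptor of a ubiquitin ligase, at least 27.4-fold. Both had disagreeing spots on the first unstressed array, and their log2 changes were 6.70 and 4.96, or 6.96 and 5.50 without it. The hydrophilin GRE1, a small protein rich in glycine, was at 0.20 and 0.10 with salt, against −4.67 and −4.54, a rise of at least 24.1-fold. For all of these the lower salt array lay above the higher unstressed array, which follows largely from how they were picked.

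In the opposite direction 9 genes were detected on both unstressed arrays and on neither salt array, a filter that favours a fall. All 9 fell, with a median bound of 3.83-fold. GFD2 was at −5.57 and −4.29 with salt, against −1.48 and −1.50 without, and fell at least 10.4-fold. TRM1, which methylates tRNA, fell at least 5.73-fold, the S-methylmethionine permease gene MMP1 at least 4.60-fold and PHM6 at least 4.57-fold. FRE7 fell at least 3.83-fold, JJJ3 at least 3.50-fold and YBR238C at least 2.98-fold. YGR035C (at least 2.40-fold) and YHK8 (at least 2.34-fold) are setting-dependent, which is used here of a call that was lost under at least 1 of the 13 alternative settings tried.

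The 15 lowest changes among genes detected on all 4 arrays were led by a transporter and an enzyme of purine salvage. PHO84, the high-affinity phosphate transporter, was at −3.63 and −2.85 with salt, against 2.63 and 2.57 without (−5.84, SE 0.38, limma adjusted p = 1.95e-05). The adenine deaminase gene AAH1 was at −3.61 and −3.58 with salt, against 0.65 and 0.58 without (−4.21, SE 0.13). HO, the mating-type endonuclease, was at −4.60 and −3.24 with salt, against −0.19 and −0.17 without (−3.74, SE 0.52). These 3 were picked for large falls, and in all of them both salt arrays lay below both unstressed arrays. For HO the salt replicates differed by more than a 2-fold signal. SFG1, a transcription factor of filamentous growth, was at −4.31 and −3.64 with salt, against −0.48 and −0.43 without. TOD6, a repressor that binds the promoters of ribosome-building genes, was itself at −4.24 and −3.21 with salt, against −0.44 and −0.51 without (−3.25, SE 0.33). The other 10 all belong to ribosome assembly or rRNA processing: DHR2, RRP12, UTP23, SYO1, FAF1, RRP8, NSR1, LTV1, ARX1 and RRP5, with log2 changes of −4.11 to −3.19. NSR1, the yeast nucleolin, was at 0.08 and 0.71 with salt, against 3.63 and 3.68 without.

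**Figure D2:**
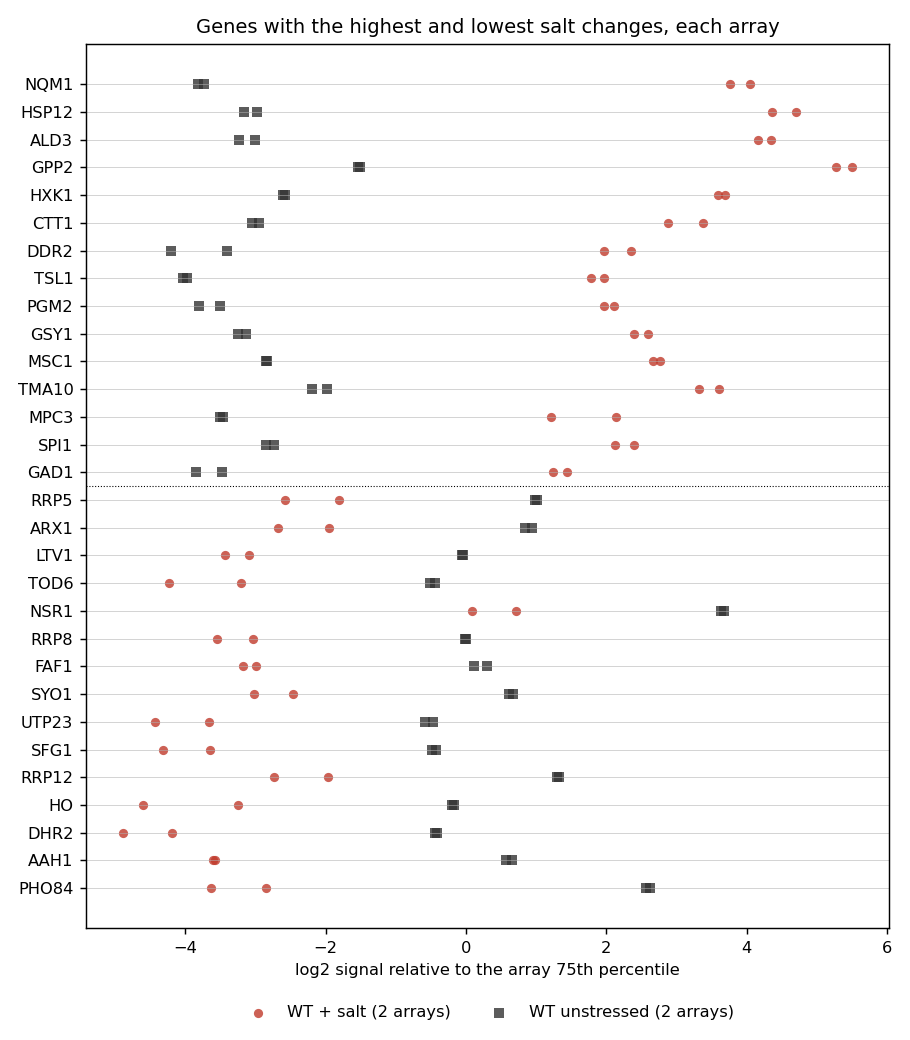
Log2 level on each array, relative to the array's 75th percentile, of the 15 genes with the highest and the 15 with the lowest salt changes among those detected on all 4 wild-type arrays. Red circles are the 2 salt arrays and black squares the 2 unstressed arrays. They do not overlap for any of the 30 genes, which were picked for the size of their change.

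The genome was then read through 59 gene lists of pathways, complexes and cell parts, holding 1918 genes. In the lists, "rose" and "fell" count members past the same test, so each count stands beside the 31.2% and 25.7% of all tested genes that did the same, and each list median beside 0.07. A range in square brackets after a count is its span over the 13 alternative settings, given where a count of 4 or more moved by over 1.5 times, as 42 of 82 such counts did. Leaving out the first or second unstressed array moved 22 and 21 of them that far, leaving out the first or second salt array 23 and 9, and normexp 20. The medians ran from 3.11 for trehalose and glycogen genes to −2.19 for factors of 60S assembly.

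**Figure D3:**
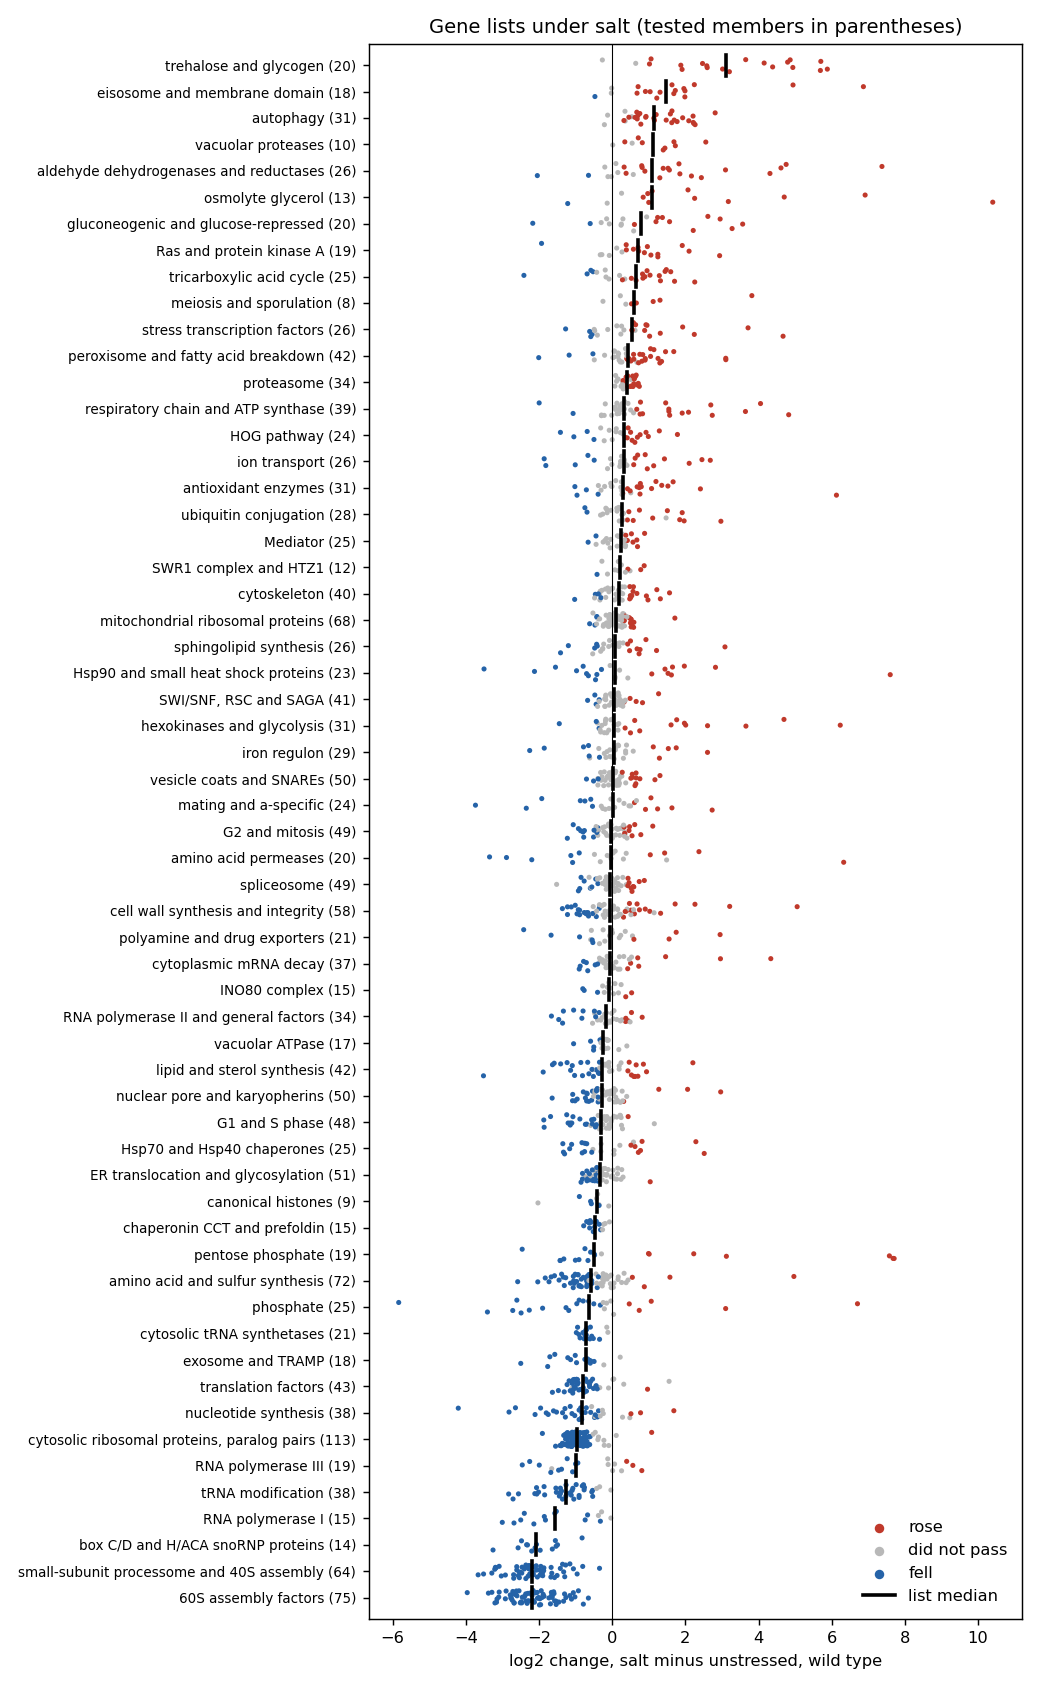
Log2 salt change in wild type of every tested member of 59 gene lists, ordered by list median (black bars). Red points rose, blue points fell and grey points did not pass. Trehalose and glycogen genes lead, at a median of 3.11, and ribosome assembly genes close the order, with every member below 0.

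Most glycerol genes rose. Of 13 tested, 10 did so and 1 fell, with a median of 1.09. GPD1, the osmotic glycerol-3-phosphate dehydrogenase, was at 5.96 and 5.63 with salt, against 1.07 and 1.12 without (4.70, SE 0.14, limma adjusted p = 5.29e-07). Its paralog GPD2 was at −3.10 and −3.27 with salt, against −1.87 and −2.06 without, and fell (−1.22, SE 0.13, limma adjusted p = 0.000177). The mitochondrial glycerol-3-phosphate dehydrogenase GUT2, which breaks glycerol phosphate down, rose 9.02-fold (3.17, SE 0.20). GPP1, the paralog of GPP2, rose by 0.97 (SE 0.20). DAK1, the dihydroxyacetone kinase, rose 4.77-fold, and the reductases GCY1 and YPR1 rose by 2.07 and 1.09.

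Reserve carbohydrate genes of synthesis and of breakdown rose side by side. In the trehalose and glycogen list 18 of 20 tested members rose, and their median was 3.11 (2.85 where folds that are bounds enter as bounds). On the synthesis side GSY1 and GSY2, the glycogen synthases, rose 51.6-fold and 17.8-fold, and the glycogen primer GLG1 at least 7.06-fold. TPS2, the trehalose phosphatase, was at 3.80 and 3.75 with salt, against −1.17 and −1.16 without. On the breakdown side the neutral trehalases NTH1 and NTH2 rose 6.04-fold and 3.76-fold. PGM1, the minor phosphoglucomutase, stood at −0.27 and did not pass, while PGM2 was at 1.97 and 2.12 with salt, against −3.81 and −3.50 without.

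The genes of the kinase cascade that senses osmolarity moved in both directions. Of 24 tested HOG pathway genes 12 [7 to 13] rose and 4 fell (median 0.33). Phosphatases that switch Hog1 off went both ways: PTP2 rose 2.44-fold (1.29, SE 0.18) and PTP3 1.70-fold (0.76, SE 0.13), while PTC2 fell by 0.68 on the log2 scale. RCK2, a kinase that Hog1 phosphorylates, rose by 0.54 and its paralog RCK1, detected on 1 salt array, by 1.78, the second being setting-dependent. The sensor SHO1 fell by 1.05 and the kinase SSK22 by 1.42, while CDC42 fell by 0.50, a setting-dependent call. SHO1 was at −0.24 and −0.20 with salt, against 0.83 and 0.82 without.

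Among stress transcription factors 13 of 26 rose and 4 [1 to 6] fell. Their median of 0.54 was 0.19 in the authors' deposited values and 0.30 after normexp background correction. XBP1, a repressor made in stress, was at −1.81 and −2.31 with salt, against −6.51 and −6.95 without, where it was not detected, and rose at least 5.76-fold. USV1, detected on 1 of the 2 unstressed arrays, rose 13.1-fold and GIS1, a regulator of stationary-phase genes, 3.80-fold. CIN5, a Yap-family factor of salt tolerance, was at −0.02 and −0.95 with salt, against −2.73 and −2.72 without (2.24, SE 0.33). MSN2 rose 2.48-fold (1.31, SE 0.15), and MSN4 by 0.92, a setting-dependent call. PHD1 was the member that fell furthest (−1.27, SE 0.26), and the falls of ROX1, SKN7 and SMP1 are setting-dependent.

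The Ras and protein kinase A list, which couples glucose to growth, moved mainly upward: 13 of 19 rose, with a median of 0.71. TPK2, a catalytic subunit of the kinase, rose 3.77-fold, while TPK3 stood at −0.28 and did not pass. YAK1, a kinase held back by protein kinase A, rose at least 3.88-fold. The 2 RAS genes went opposite ways, with RAS2 at 2.52 and 2.33 with salt, against 1.30 and 1.07 without, and RAS1 at −2.54 and −2.53 with salt, against −0.59 and −0.61 without.

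Ion transport genes moved in both directions. Of 26, 10 rose and 5 [3 to 5] fell, and the median was 0.31, against 0.19 in the authors' deposited values. The sodium pump genes ENA1 and ENA2 rose 5.47-fold and 6.41-fold, whereas ENA5 was at −0.43 and −0.21 with salt, against −0.36 and −0.17 without, and did not pass. PMC1, the vacuolar calcium pump, rose 4.30-fold (2.10, SE 0.23). PMA1, the main plasma membrane proton pump, was at 1.69 and 2.30 with salt, against 3.67 and 3.96 without (−1.81, SE 0.31, limma adjusted p = 0.00202). PMP2, a small regulator of that pump, fell by 1.86, and its partner PMP1 by 1.01, a setting-dependent call. The falls of TRK1, a potassium importer, and SIS2, a salt tolerance gene, were of 0.66 and 0.49, the first being setting-dependent. In the vacuolar ATPase 5 [1 to 6] of 17 fell, by at most 1.06 (PKR1, an assembly factor).

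Most genes of eisosomes, the protein domains that furrow the plasma membrane, rose. The count was 15 of 18, with a median of 1.47. The core coat genes PIL1 and LSP1 both rose. PIL1 was at 5.02 and 4.85 with salt, against 2.94 and 2.96 without, and LSP1 at 4.03 and 3.70 with salt, against 1.67 and 1.57 without. FMP45, a membrane protein of the SUR7 family, was at 0.36 and 0.11 with salt, against −6.39 and −6.87 without, and rose at least 28.2-fold. YNL194C of the same family rose at least 6.29-fold, and SUR7 itself was the member that fell (−0.47, SE 0.11, limma adjusted p = 0.00708).

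Chaperone genes did not move as 1 class. Of 23 Hsp90 and small heat shock genes 8 rose and 10 [5 to 10] fell, and of 25 Hsp70 and Hsp40 genes 7 rose and 11 fell. HSP26 and HSP42, small chaperones that bind aggregates, rose 7.07-fold and 3.13-fold, and the stress Hsp70 SSA4 5.71-fold. SSE2, an Hsp110, was at −1.09 and −1.19 with salt, against −3.27 and −3.58 without, while its paralog SSE1 stood at −0.31 and did not pass. The ribosome-bound Hsp70 SSB1 was at 2.58 and 2.75 with salt, against 4.13 and 3.90 without (−1.35, SE 0.13). HSP30, a plasma membrane protein, fell 11.4-fold, with 1 salt array above background, and CNS1, a cochaperone, fell 4.36-fold. For HSC82, the constitutive Hsp90, the log2 change was −0.46, or 0.06 after quantile scaling, a setting-dependent call. Of 15 chaperonin and prefoldin genes, which fold actin and tubulin, 11 [4 to 13] fell, by at most 0.78 (PAC10). The count was 4 without the first unstressed array and 6 without any other wild-type array.

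Genes of autophagy and vacuolar breakdown moved upward. In the autophagy list 26 [14 to 28] of 31 tested rose, with a median of 1.14, or 0.52 in the authors' deposited values, where 23 rose. Under normexp 14 did. ATG19, a receptor that brings enzymes to the vacuole, was at 1.11 and 1.03 with salt, against −1.19 and −1.11 without (2.21, SE 0.11, limma adjusted p = 7.39e-06). ATG7, the activating enzyme of the pathway, rose 4.69-fold and was detected on 1 of the 2 unstressed arrays. ATG14, a subunit of the lipid kinase, rose at least 1.99-fold and is setting-dependent. Of 10 vacuolar protease genes 8 rose, with a median of 1.11: the aminopeptidase APE1 5.88-fold, the protease PRB1 3.31-fold, ATG42 3.22-fold and the master protease PEP4 2.71-fold. PEP4 was at 3.40 and 3.23 with salt, against 1.86 and 1.89 without.

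Of 34 proteasome genes 20 [8 to 28] rose, all by less than 2-fold and with a median of 0.39, led by RPN5 (0.74, SE 0.11). The count was 8 without the second unstressed array, 11 without the first unstressed or first salt array and 13 under normexp. In the ubiquitin list 10 [6 to 13] of 28 rose and 2 fell. The stress polyubiquitin gene UBI4 was at 2.91 and 2.75 with salt, against −0.20 and −0.08 without (2.97, SE 0.12). The conjugating enzymes UBC5 and UBC8 rose 3.76-fold and 3.90-fold, and the ligase HUL4 3.59-fold. The 2 members that fell, RPL40A and RPL40B, encode ubiquitin fused to a ribosomal protein, and both calls are setting-dependent.

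Redox genes rose in part. In the antioxidant list 15 of 31 rose and 4 [2 to 6] fell. Behind CTT1 came PRX1, the mitochondrial peroxiredoxin, 5.31-fold higher, and the glutaredoxins GRX2 (3.17-fold) and GRX7 (2.87-fold). Of the cytosolic peroxiredoxins TSA2 rose 2.56-fold, while TSA1 stood at −0.31 and did not pass. GPX2 fell by 0.96 and the thioredoxin reductase TRR1 by 0.71, and the falls of GRX8 and GRX3 are setting-dependent. Among aldehyde dehydrogenases and reductases 18 of 26 rose, with a median of 1.10. ALD4, the mitochondrial acetaldehyde enzyme, was at 4.98 and 4.88 with salt, against 0.32 and 0.31 without (4.61, SE 0.11), and the methylglyoxal reductase GRE2 rose 19.9-fold. ALD5 was at −0.37 and −0.08 with salt, against 1.79 and 1.86 without (−2.05, SE 0.13), and OYE2 fell by 0.65.

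In sugar metabolism the core of glycolysis stayed near 0 while side isozymes rose. Of 31 hexokinase and glycolysis genes 12 rose and 3 fell (median 0.05). HXK1 was at 3.59 and 3.69 with salt, against −2.58 and −2.61 without. The glucokinase GLK1 was at 4.25 and 4.19 with salt, against −0.41 and −0.54 without. HXK2, the main hexokinase in glucose, was at 5.10 and 5.18 with salt, against 5.28 and 5.30 without (−0.15, SE 0.10), and did not pass. EMI2 rose 12.6-fold, GPM2 6.08-fold and the pyruvate kinase PYK2 3.93-fold, while the main pyruvate kinase CDC19 stood at −0.10 (SE 0.14) and did not pass. ADH3, the mitochondrial alcohol dehydrogenase, fell 2.73-fold, and the falls of ADH4 and PFK2 are setting-dependent.

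The pentose phosphate list, which feeds NADPH and nucleotide synthesis, split within its own steps. Of 19 members 7 rose and 11 fell. SOL4 was at 2.45 and 2.16 with salt, against −5.38 and −5.42 without, TKL2 at 1.60 and 1.45, against −6.33 and −5.78, and both were undetected without salt. GND2, a 6-phosphogluconate dehydrogenase, was at −0.64 and −1.12 with salt, against −3.84 and −4.15 without (3.12, SE 0.62). The partners that are abundant in glucose moved less and downward: TKL1 −0.75 (SE 0.11), GND1 −0.59 (SE 0.12), SOL3 −0.49 (SE 0.14) and TAL1 −0.48 (SE 0.14), all 4 being setting-dependent calls.

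Lists of mitochondrial and fat-burning genes differed in the share that rose. In the tricarboxylic acid cycle 15 of 25 rose and 4 [1 to 5] fell, with a median of 0.65. The succinate dehydrogenase gene SDH1 was at 1.02 and 0.82 with salt, against −1.36 and −1.30 without, and the citrate synthase CIT1 rose 3.03-fold. The falls of PYC2, ACO1 and CIT2 are setting-dependent. In the respiratory list 15 of 39 rose (38.5%, against 31.2% of all tested genes) and 2 fell. STF2, INH1 and STF1, which encode inhibitors or stabilisers of the ATP synthase, rose 16.6-fold, 12.5-fold and 6.47-fold, INH1 being detected on 1 of the 2 unstressed arrays. CYC7, the minor cytochrome c, was at −0.30 and −0.95 with salt, against −5.07 and −5.83 without, and rose at least 15.6-fold. CYC1, the major form, was at −3.05 and −3.01 with salt, against −0.90 and −1.16 without (a 3.99-fold fall), and NDE1 fell by 1.07. Of 42 peroxisome and fatty acid genes 23 [13 to 24] rose and 3 fell, and the median was 0.44, against 0.27 in the authors' deposited values. ECI1 rose 3.21-fold and the thiolase POT1 at least 2.07-fold, while the fatty acyl-CoA synthetase FAA4 fell 4.02-fold and PEX21 2.26-fold, and the fall of PEX11 is setting-dependent. Mitochondrial ribosomal protein genes had a median of 0.10, with 12 [3 to 19] of 68 higher (17.65%, below the 31.2% of all tested genes) and 4 [1 to 7] lower. Without the second unstressed array 3 were higher, and without the first salt array 4.

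Glucose-repressed genes rose in 10 [5 to 11] of 20 cases, among them CAT8, an activator of gluconeogenesis, at −0.71 and −0.67 with salt, against −4.09 and −3.84 without (3.28, SE 0.54). JEN1, the lactate permease, rose at least 2.65-fold. The list median of 0.77 was 0.22 in the authors' deposited values, 0.29 over members detected on all 4 arrays, 0.41 under normexp, 0.46 with quantile scaling and 0.49 without the first unstressed array. ATO3, an ammonium exporter, fell 4.51-fold, and the fall of ICL2 is setting-dependent.

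Genes that build the small and large ribosomal subunits fell as a block. All 64 small-subunit genes fell, by a median of 2.18 log2 units, and all 75 factors of 60S assembly, by a median of 2.19. So did all 14 genes for snoRNP proteins, which guide modification of rRNA, with a median of −2.09. RRP12 was at −2.74 and −1.96 with salt, against 1.30 and 1.33 without, and UTP23 at −4.43 and −3.66, against −0.47 and −0.59. LTV1 was at −3.43 and −3.09 with salt, against −0.06 and −0.04 without. All 3 were picked for large falls, and in each both salt arrays lay below both unstressed arrays. NOP1, the fibrillarin that methylates rRNA, was at −0.10 and 0.17 with salt, against 2.37 and 2.38 without, and NOP58 fell 5.58-fold. PUF6 was at −2.98 and −4.49 with salt, against 0.19 and 0.27 without (−3.96), and has a spot in the dim area, without which its change was −3.21. SSF1 fell by 2.49 and its paralog SSF2 by 1.16.

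Of 15 tested genes of RNA polymerase I, which transcribes rRNA, 12 fell, with a median of −1.57. RPA43 was at −2.54 and −2.05 with salt, against 0.74 and 0.68 without (an 8.03-fold fall). RPA190, the largest subunit, fell 6.43-fold. Polymerase III genes went both ways. RPC25, RPC31, RPC34 and RPC53, subunits of the enzyme, fell by 2.46, 2.26, 1.99 and 1.68. TFC3 and TFC7, subunits of the factor that binds tRNA genes, rose by 0.81 and 0.56, and MAF1, the repressor of polymerase III, by 0.39, the last being setting-dependent. In total 10 of 19 fell and 3 rose. For polymerase II and its general factors 10 of 34 fell and 5 [1 to 6] rose. The 4 lowest, RPB8 (−1.66), RPC10 (−1.46), RPB5 (−1.36) and RPO26 (−1.34), encode subunits that all 3 polymerases share. The 5 that rose are TFIIH subunits: TFB3 at 0.82 (SE 0.12), and CCL1, SSL2, TFB1 and SSL1, whose calls are setting-dependent.

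Most genes of the translation apparatus fell. Among cytosolic ribosomal protein genes present as A and B copies, 104 of 113 fell and 1 rose, with a median of −0.96. With quantile scaling the median was −0.59 and 90 fell. The falls ran to RPL31B (−1.91, SE 0.16), RPL33B (−1.55) and RPS10A (−1.43). Across 56 pairs with both copies tested, the change of the A copy minus that of the B copy lay between −1.54 in RPL15 and 1.39 in RPS9. RPL15B was at 1.43 and 1.17 with salt, against 0.27 and 0.17 without (1.08, SE 0.21, limma adjusted p = 0.00395), and is the member that rose, while RPL15A stood at −0.46 and did not pass. The differences between copies were not tested.

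Of 43 translation factor genes 34 fell, with a median of −0.80. TIF35, a subunit of initiation factor 3, was at 0.95 and 1.08 with salt, against 2.75 and 2.55 without (−1.64, SE 0.13). The scaffold TIF4631 fell 2.77-fold, while its paralog TIF4632 stood at 0.04 (SE 0.16) and did not pass. YEF3, the fungal elongation factor 3, fell 2.26-fold, and its paralog HEF3 was the member that rose (0.97, SE 0.12, setting-dependent). Of 38 tRNA modification genes 35 fell, by a median of 1.25 log2 units, with TRM11 6.55-fold lower. Cytosolic tRNA synthetases fell in 19 of 21 cases, with a median of −0.71. With quantile scaling 14 fell, with a median of −0.44.

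Genes of RNA turnover in the nucleus mostly fell. Of 18 exosome and TRAMP genes, which trim and degrade nuclear RNA, 16 fell, with a median of −0.72. MTR4, the TRAMP helicase, was at −0.79 and −0.42 with salt, against 1.79 and 2.00 without (−2.50, SE 0.16). In cytoplasmic mRNA decay 7 of 37 rose and 7 [4 to 9] fell. DCS2, an inhibitor of the scavenger decapping enzyme, was at 1.10 and 0.81 with salt, against −3.57 and −3.19 without, a 20.2-fold rise, and DCS1, the scavenger enzyme, rose 7.77-fold. The decapping activator EDC2 rose 2.75-fold and the decapping subunit DCP1 fell 1.87-fold. Spliceosome genes stayed near 0, with a median of −0.05, and 9 [4 to 9] of 49 rose and 8 [3 to 13] fell. The highest was the helicase PRP5 (0.88, SE 0.11), and PRP28, the lowest of those that fell, is setting-dependent at −0.92.

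Most chromatin genes did not pass the test. Of 15 genes of the INO80 complex, named in the series title, 2 rose and 3 fell, with a median of −0.09. IES6 was at 0.04 and −0.05 with salt, against 0.85 and 0.75 without (−0.80, SE 0.13, limma adjusted p = 0.00143). The helicase RVB1 fell by 0.77 (SE 0.11). IES1, at −2.34 and −2.44 with salt, against −2.92 and −2.92 without, IES2 and ARP4 passed with changes of 0.53, 0.37 and −0.40, all setting-dependent. A further list holds HTZ1, CHZ1 and genes of SWR1, which places Htz1 in nucleosomes. Of its 12 tested members 3 rose and 1 fell. RVB1 and ARP4, counted above with INO80, are not on it. The ATPase gene SWR1 was at 0.80 and 0.77 with salt, against −0.11 and −0.06 without (0.87, SE 0.12, limma adjusted p = 0.000563), and SWC5 rose by 0.78. VPS71 and CHZ1 passed at 0.43 and −0.42, both setting-dependent, and HTZ1 stood at −0.28 (SE 0.15) and did not pass. In the SWI/SNF, RSC and SAGA list 5 [3 to 8] of 41 rose and 4 [0 to 6] fell. RSC9 was at 2.07 and 1.96 with salt, against 0.74 and 0.76 without, a 2.41-fold rise, and SPT3 rose 1.57-fold. Mediator genes rose in 7 [3 to 10] of 25 cases (28%, against 31.2% of all tested genes), led by SOH1 (0.88, SE 0.20). They fell in 2, MED6 by 0.66. Of 9 histone genes 4 [1 to 8] fell, HTA1 furthest among them (−0.90, SE 0.15), and the calls of HHT1, HTA2 and HTB2 are setting-dependent. The 9 include the linker histone HHO1, which has a spot in the dim area. Its change of −2.03 did not pass, and it was −0.50, which passed, without its disagreeing spots. The histone median of −0.43 was −0.15 with quantile scaling and −0.21 in the authors' deposited values.

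Nucleotide synthesis genes fell in 28 of 38 cases, with a median of −0.84, and 3 rose. URA7, the main CTP synthase, was at −1.38 and −1.07 with salt, against 1.56 and 1.64 without (−2.82, SE 0.17). Its paralog URA8 was at 0.87 and 0.81 with salt, against 0.31 and 0.35 without, and rose (0.51, SE 0.10, limma adjusted p = 0.00412). HPT1 of purine salvage fell 6.26-fold and the uridine permease FUI1 4.32-fold. URA10, a minor isozyme of pyrimidine synthesis, detected on 1 of the 2 unstressed arrays, rose 3.21-fold, and ADE2 by 0.77, which is setting-dependent. Amino acid and sulfur genes fell in 39 of 72 cases and rose in 4 [3 to 7], with a median of −0.58. LEU9, a minor isopropylmalate synthase, was at −1.38 and −1.16 with salt, against 1.31 and 1.32 without, while its paralog LEU4 stood at −0.27 and did not pass. ARO9, an aminotransferase of aromatic amino acid breakdown, was at 2.85 and 2.86 with salt, against −2.21 and −2.01 without (4.97, SE 0.13). MET13 and GDH3 rose 2.98-fold and 1.84-fold, and SER3 by 0.55, which is setting-dependent.

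Other nutrient genes moved one by one. Amino acid permeases rose in 4 [2 to 6] of 20 cases and fell in 6 [3 to 7]. GAP1, the general permease, rose 2.70-fold and AGP2, detected on 1 of the 2 unstressed arrays, 5.17-fold. SAM3, the S-adenosylmethionine permease, was at −1.10 and −3.86 with salt, against 0.84 and 0.90 without, and its change of −3.35 was −1.97 without its disagreeing spots. In the phosphate list 15 of 25 fell, with a median of −0.65, and PHM8, a phosphatase, rose at least 6.61-fold. The spots of PHM8 disagreed on the second unstressed array, and without it the log2 change was 3.61. The cyclin PHO80 and its kinase PHO85 rose by 0.47 and 0.74, the first being setting-dependent. The iron list had 5 of 29 higher and 6 [3 to 8] lower. HMX1, the haem oxygenase, rose 6.08-fold and TIS11, which degrades mRNAs of iron-using proteins, 3.36-fold, while FET4, a low-affinity iron importer, fell 4.78-fold and the reductase FRE1 3.63-fold. Among polyamine and drug exporters TPO4 rose 7.71-fold and TPO2 fell by 2.42, which is setting-dependent.

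Lipid and sterol genes fell in 19 of 42 cases and rose in 10 [6 to 11]. ERG11, the lanosterol demethylase, was at 1.55 and 1.59 with salt, against 3.09 and 3.32 without (−1.63, SE 0.14), and ELO3, which elongates very long fatty acids, fell 3.70-fold. OLE1, the fatty acid desaturase, was at 1.11 and −1.73 with salt, against 3.05 and 3.37 without, and has a spot in the dim area. Its change was −3.52, and −2.10 without that spot's array. INO1, of inositol synthesis, was detected on 1 salt array and passed at 2.20, which is setting-dependent. In sphingolipid synthesis the ceramidases YPC1 and YDC1 rose, at least 7.09-fold and 2.32-fold, while AUR1, which adds the inositol head group, fell 2.66-fold and the hydroxylase SUR2 2.30-fold.

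Secretion, cell surface and cell cycle lists had medians of −0.35 to 0.18. Of 51 genes for entry into the endoplasmic reticulum and glycosylation 19 [8 to 30] fell, with a median of −0.35, SEC62 by 0.81, and ALG13 was the member that rose (1.04, SE 0.16). The 19 became 8 without the first salt or either unstressed array and 11 without the second salt array. Vesicle genes rose in 11 of 50 cases (22%, against 31.2% of all tested genes) and fell in 3. The SNAREs VTI1 and PEP12 rose by 1.31 and 1.17. In the nuclear pore and karyopherin list 18 [10 to 26] of 50 fell, KAP123, an importer of ribosomal proteins, 3.12-fold, while GSP2, a Ran GTPase, was at 0.75 and 0.42 with salt, against −2.30 and −2.46 without, and POM33 rose 4.17-fold. Cell wall genes rose in 15 [8 to 17] of 58 cases and fell in 18 [8 to 23]. CWP1, a mannoprotein, was at 5.56 and 5.15 with salt, against 2.34 and 1.96 without (3.21, SE 0.18). The G1 and S phase list had 17 [11 to 24] of 48 lower, with a median of −0.31, or −0.46 with quantile scaling, where 24 fell. NRM1, a repressor of G1 genes, fell 3.63-fold and POL30, the sliding clamp, 2.37-fold. CLB5, an S-phase cyclin, was at −1.95 and −4.32 with salt, against −1.32 and −1.22 without. Its change of −1.87 was −0.68 without its disagreeing spots, and its call is setting-dependent. In G2 and mitosis 8 [3 to 11] of 49 rose and 11 [4 to 15] fell, with CDC15, a kinase of mitotic exit, at 1.11, which is setting-dependent, and ALK2 at −1.23. Cytoskeleton genes rose in 13 [8 to 18] of 40 cases (32.5%, against 31.2% of all tested genes) and fell in 4 [1 to 7]. VRP1 and MYO3 of actin patches were 2.33-fold and 2.49-fold higher. In the mating list 6 of 24 rose and 7 fell, with a median of 0.01 and a highest change of 2.73. FAR1, which arrests the cycle before mating, was at −4.15 and −3.33 with salt, against −1.46 and −1.33 without. MFA2, a gene of a-factor pheromone, fell 3.80-fold. Of 29 meiosis genes only 8 were tested, because a gene dim without salt enters only if it is bright elsewhere. Of these, SPS100 rose at least 8.20-fold.

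Paralog pairs moved together or apart. Of 62 pairs of metabolic, signalling and chaperone genes, 60 had both members tested. In 19 pairs both rose, in 6 both fell and in 14 the members passed in opposite directions, while in 15 a member rose and the other did not pass. Of all tested genes 31.2% rose and 25.7% fell. Among 4534 pairs of genes 10 apart in gene order, both rose in 9.5%, both fell in 7.3% and 15.6% were opposite. Whether paralog pairs differ from such pairs was not tested. No test was made of the difference within a pair. In 6 of the 14 opposite pairs both calls held under every alternative setting that included the gene. These were GPD1 and GPD2, ALD4 and ALD5, CYC7 and CYC1, RAS2 and RAS1, FMP45 and SUR7, and URA8 and URA7. CYC7 and FMP45 were not detected without salt. The alternative limited to genes bright on all 4 wild-type arrays therefore did not include them. The other opposite pairs each have at least 1 setting-dependent member: TKL2 and TKL1, NQM1 and TAL1, GND2 and GND1, SOL4 and SOL3, SSA1 and SSA2 (0.62 and −0.70), PMA2, detected on 1 salt array, and PMA1, CIT1 and CIT2, and HEF3 and YEF3. Pairs that rose together include PIL1 and LSP1 (1.99 and 2.24) and DCS2 and DCS1 (4.33 and 2.96).

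**Figure D4:**
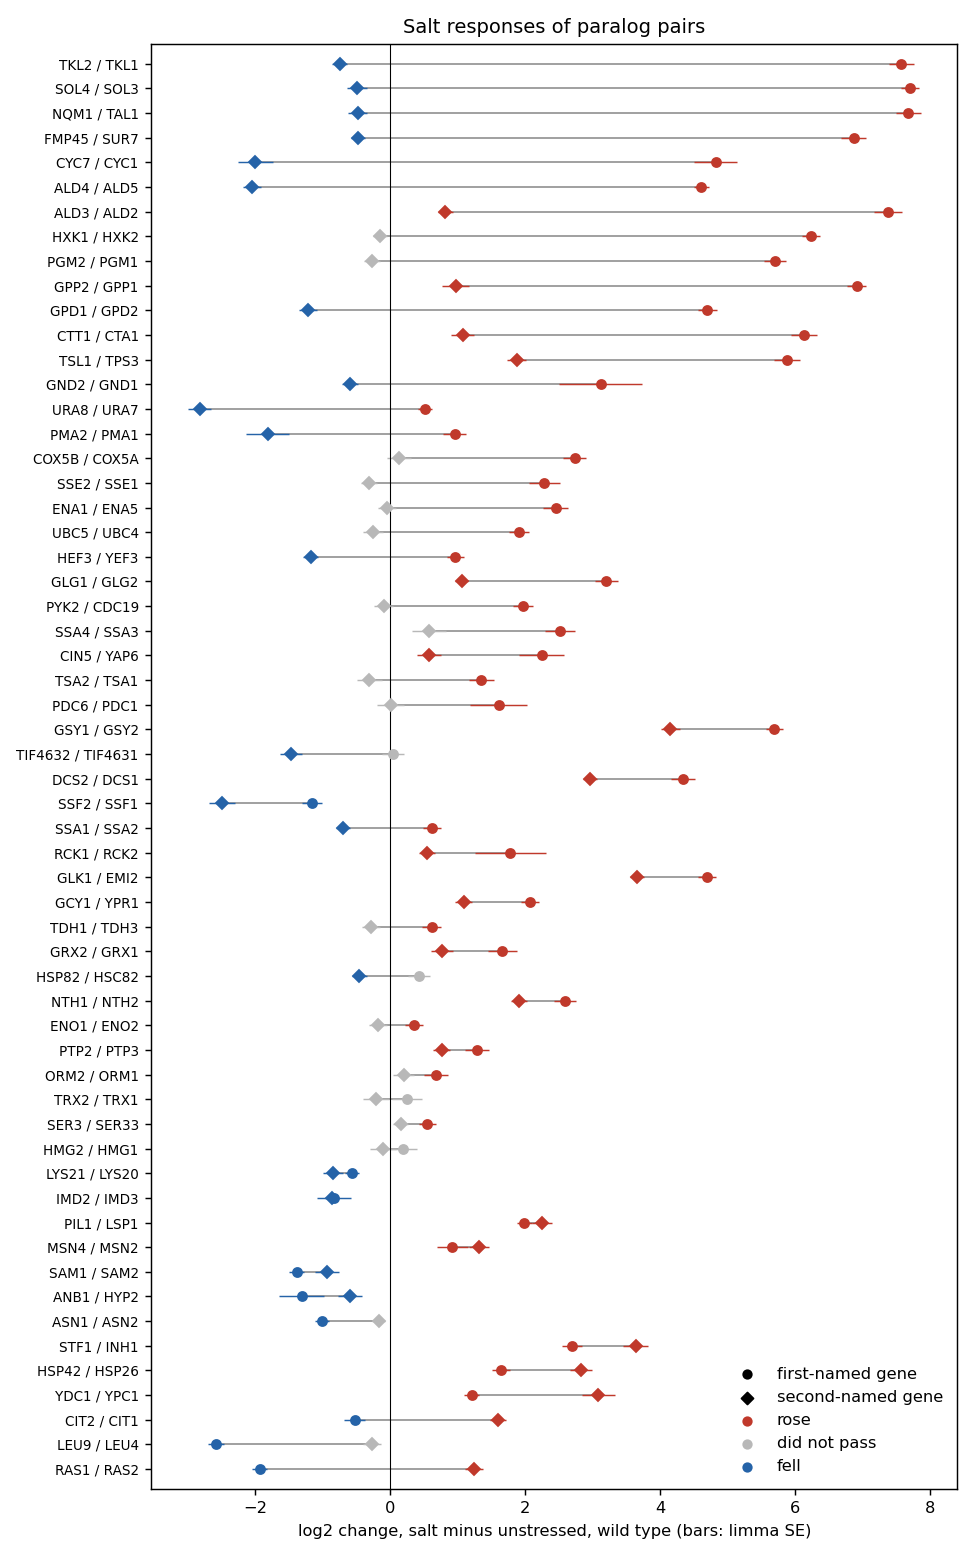
Log2 salt change in wild type of both members of 58 of the 60 paralog pairs, ordered by the difference between first-named (circle) and second-named (diamond) gene. Bars are limma's SE, red marks rose, blue marks fell and grey marks did not pass, and among pairs detected on all 4 arrays NQM1 and TAL1 stand at 7.68 and −0.48. Genes not detected without salt, such as TKL2, are drawn at fitted values that exceed their bounds.

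The direction of change varied with how bright the probe was. To keep the grouping apart from the arrays compared, genes detected on all 4 wild-type arrays were ranked by their level in the unstressed deletion strain and cut into 5 bins of 989 or 990. The share that rose was 39.7% in the dimmest bin, then 36.8%, 30.8% and 24.9%, and 13.9% in the brightest. The share that fell ran the other way, at 10.2%, 18.9%, 24.0%, 31.9% and 49.3%. Bin medians went in the same order, at 0.27, 0.20, 0.10, −0.07 and −0.40. The part of probe brightness itself in these shares was not tested.

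The changes of neighbouring genes were weakly correlated. Across 4691 adjacent pairs the log2 salt changes correlated at r = 0.11, against −0.02 for genes 10 apart. By orientation r was 0.17 in 1187 divergent pairs, which share an upstream region, 0.10 in tandem pairs and 0.06 in convergent pairs. Both members rose in 10.4% of adjacent pairs and in 9.5% of pairs 10 apart, and both fell in 8.4% and 7.3%. These are descriptions across genes, which are not independent and share the same 4 arrays. Neighbouring paralogs that may share probe signal were not left out, and no cause was tested.

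Set against the strain without HTZ1, the wild-type response differed for 54 of 5394 genes (1.00%) by the interaction term in limma, and 653 passed at an unadjusted p under 0.05. Slide row, as read from the scan names, and strain cannot be told apart, since each strain filled a row of its own. The wild-type response minus that of the deletion strain was above 0 for 48 of the 54, for 32 of 40 with quantile scaling, 13 of 19 in the authors' deposited values and 68 of 102 without the first salt array. Of the 36 detected on all 8 arrays 35 lay above 0. Among these 36, 14 rose in wild type, all by more than in the deletion strain, and 21 fell, 20 of them by less than in the deletion strain. The median difference over all tested genes was 0.07. Among the genes detected on all 8 arrays HXK1 had the highest difference (2.68, SE 0.19, adjusted p = 0.00633). It was at 3.59 and 3.69 in wild type with salt, against −2.58 and −2.61 in unstressed wild type, and at 4.53 and 4.77 in the deletion strain with salt, against 0.99 and 1.21 in the unstressed deletion strain. TMA10 followed (2.53, SE 0.22), with 3.60 and 3.32 in salt-treated wild type, against −1.99 and −2.19 unstressed, and 4.07 and 3.81 in the salt-treated deletion strain, against 0.98 and 0.86 unstressed. In both genes the strains were closer with salt than without. RPA12, a polymerase I subunit, was at −1.15 and −1.13 in salt-treated wild type, against 0.56 and 0.30 unstressed, and at −3.53 and −3.26 in the salt-treated deletion strain, against 0.32 and 0.12 unstressed (difference 2.05, SE 0.21). Here the levels of the strains overlapped without salt and did not with it. The number of genes that differed was 1 under normexp and 141 with the replicate block. It was 13 without the first and 19 without the second unstressed wild-type array, and 16 without the second salt array.

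**Figure D5:**
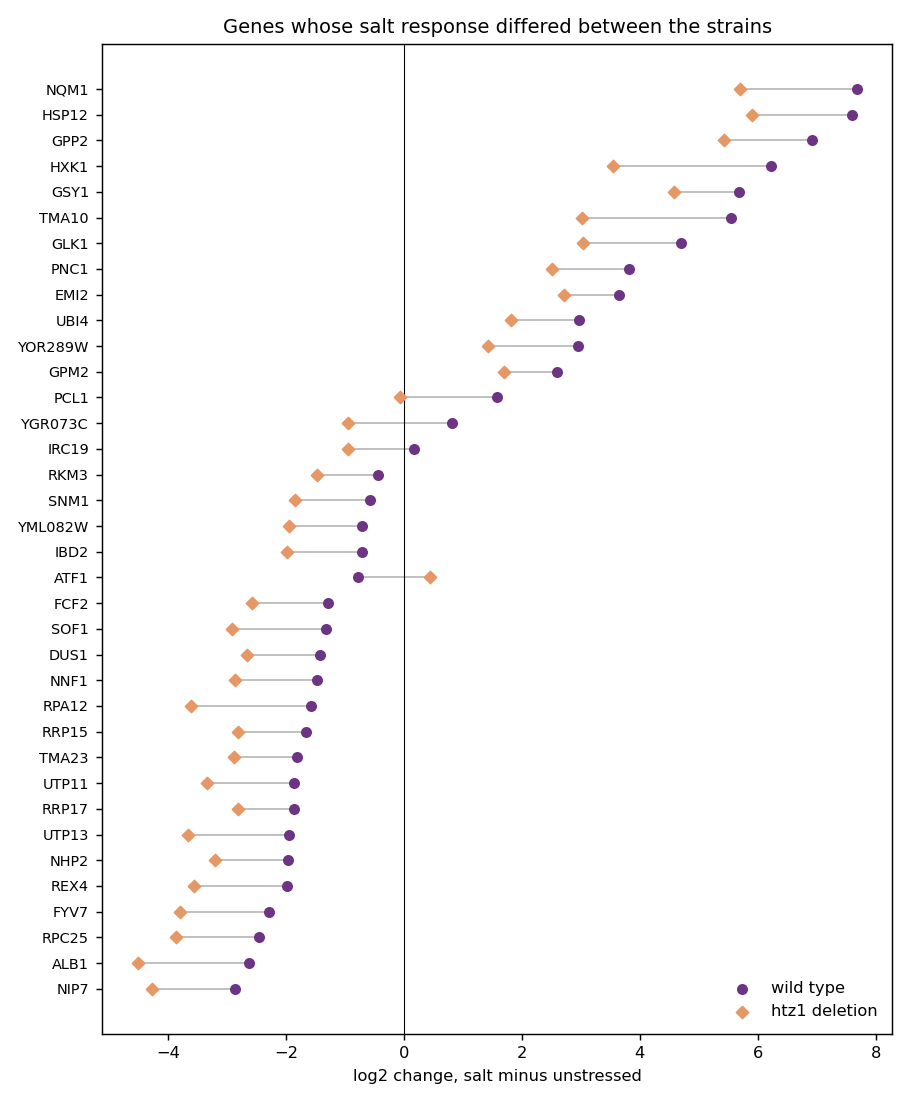
Log2 salt change in wild type (purple circles) and in the htz1 deletion strain (orange diamonds) for the 36 genes that differed and were detected on all 8 arrays, ordered by the wild-type change. In 35 of them the wild-type point lies to the right, and ATF1 is the exception at −0.78 in wild type and 0.45 in the deletion strain.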

How the data were processed

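Total RNA of 8 yeast cultures was measured on single-colour oligonucleotide arrays, 2 cultures per group; groups come from the sample titles. Per the file headers, the deposited processed intensity was read by Agilent Feature Extraction 10.7.3.1 and background-subtracted within each array, and the design names the sacCer2 build. The authors' deposited value table holds log2 values of 6187 probes, whose normalization was not given in the sources used here. Array medians lay between 10.55 and 10.57, and the column of the second wild-type salt array matched the first salt array best. Limma appears in the submitters' processing notes.

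Here, log2 processed intensity minus the 75th percentile of all non-control spots on the array was averaged over the 2 spots of a probe, leaving out 86 outlier spots (0 spots were saturated). Genes entered the tests through their brightest probe, where some group had it flagged above background on each of its 2 arrays. Names came from the files and the R64 gene table, which matched 5767 of 6256 probes. Tests used limma 3.58.1 in R 4.3.3: 4 group means over 8 arrays, eBayes, Benjamini-Hochberg over 5394 genes, adjusted p under 0.05. The same fit was run on simulated data that had few changed genes and no array effects. That run does not bear on the calls made here. Normexp used median signals with offset 50. Tables and figures used Python 3.11.15. The number of arrays limits the precision. Named genes are the 15 highest and lowest changes, 12 switched on and those lost, up to 4 members per list and those against its majority, paralogs, 5 wide replicate gaps and 6 strain differences at each end. Members and lists were chosen with earlier results of these data known. Promoter motifs were not analysed here, and a few genes are not reported here. Alternatives are given in the closing section.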

Additional observations from a re-analysis of the deposited data

Results flagged for a closer look

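The salt responses of 22 named genes differed between wild type and the deletion strain by the interaction term of limma, with adjusted p under 0.05. All values are the log2 response of wild type minus that of the deletion strain, from 2 arrays per group. Genes that rose in wild type were RTC3 (2.95), HXK1 (2.68), TMA10 (2.53), INH1 (1.98), NQM1 (1.97), HSP12 (1.69), GLK1 (1.65), SOL4 (1.61), GPP2 (1.49), UBI4 (1.15), GSY1 (1.11), EMI2 (0.93) and GPM2 (0.91). RTC3 and SOL4 were not well above background in unstressed wild type, INH1 was below that mark on 1 of the 2 unstressed wild-type arrays and AIR1 on 2 of the 4 deletion arrays, so these 4 differences depend on values near background. Genes of ribosome building, polymerases and RNA turnover that fell in wild type were RPA12 (2.05), ALB1 (1.90), AIR1 (1.72), RPC25 (1.40), TMA23 (1.06), RKM3 (1.04) and RRP17 (0.95). YGR073C stood at 1.77, and ATF1, an alcohol acetyltransferase, at −1.23. The differences rest on 54 calls that numbered 1 under normexp background correction. No cause was tested.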

How the results depend on the processing

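The 13 alternatives left 1056 to 1936 genes higher with salt and 1017 to 1636 lower. Lower genes outnumbered higher ones with quantile scaling (1496 and 1483), under normexp (1094 and 1056) and in the authors' deposited values (1552 and 1472). Normexp background correction gave 1056 higher genes against 1683, and the authors' deposited values gave 802 genes of at least 2-fold against 1303. Leaving out each wild-type array in turn gave 1246 to 1432 higher genes, 1017 to 1142 lower genes and 1233 to 1357 of at least 2-fold. Of the 3070 calls, 2145 were made again with the same sign under normexp. The count of genes that differed between the strains was the least stable: 54 as reported, 1 under normexp, 19 in the authors' deposited values, 14 with no filter on dim probes, 141 with the replicate block and 13 to 102 with a wild-type array left out. Replicate numbers were shared by the groups, but differences between same-numbered arrays correlated at 0.18 in wild type and at 0.19 to 0.42 between the other groups, over 2 numbers that no label ties to a shared batch, so they are not taken as pairs, and the replicate block gave 1936 higher and 1636 lower genes. Over all genes, 7 called changes had the other sign with quantile scaling, 4 in the authors' deposited values and 3 without disagreeing spots. Among named genes, sign changes with a call before or after were HSC82 at 0.059 with quantile scaling, GGA1 at −0.71 without the first salt array (2.64 without the second), and COQ6 at 1.17 (−2.38 without the first salt array) and UFD2 at 0.64 without disagreeing spots, an alternative chosen after seeing the data. COQ6, GGA1 and UFD2 have a spot in the dim area, and for HSC82 the cause was not tested. Of 384 named genes that passed, 277 kept their call under every alternative that included them. The alternative limited to genes bright on all 4 wild-type arrays covered 350 of the 414 named genes. The promoter motif alternative was not run. Probes near background give only bounds.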
